A study of Sus scrofa with 10 samples.

Results

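Bile acid and organic anion transporters are the membrane proteins through which hepatocytes draw bile acids and other anions out of portal blood and pass them on into bile or back into blood. The set held 10 genes in 3 roles, listed by symbol and chosen with earlier results of these data known. SLC10A1, SLCO1B3, SLCO2B1 and SLC22A7 are uptake carriers of the blood-facing (basolateral) membrane, ABCB11, ABCB4 and ABCC2 are export pumps of the bile-facing (canalicular) membrane, and SLC51A, SLC51B and ABCC3 export across the basolateral membrane. Of the 10 genes, 8 were matched by symbol to a row of a table of 31905 pig genes, each to 1 row. SLCO1B3 and ABCB4 were not matched and are not analysed here, so uptake was represented by 3 genes, canalicular export by 2 and basolateral export by 3.

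The study measured RNA of pig (Sus scrofa) liver in liver failure after hepatectomy, removal of part of the liver, and asked which failure-associated genes were reverted by a bioartificial liver. A bioartificial liver is a device outside the body that passes blood over liver cells; here the cells were human induced hepatocytes, hepatocyte-like cells converted from another human cell type. The 10 libraries formed 5 groups: Control, normal liver on day 0 (n = 3); NoBAL, liver failure with no device on day 2 (n = 2); EmptyBAL, liver failure treated on day 3 with the device left empty of cells (n = 2); hiHepD4, the cell-filled device on day 4 (n = 1); and hiHepD8, the cell-filled device on day 8 (n = 2). Genotype was given as WT in all 10 libraries, and neither strain, age nor the animal behind each library was used here. Because the day differed in every comparison, treatment and time since surgery cannot be told apart. Whether libraries of a group stem from different animals is not in the labels; the p-values therefore reflect the spread among these libraries alone, and that spread may be technical.

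In the healthy liver, SLC10A1 (NTCP) carries conjugated bile acids into the hepatocyte together with sodium, and organic anion carriers of the SLCO and SLC22 families take up bilirubin conjugates, hormones and drugs. ABCB11 (the bile salt export pump) drives bile acids into the canaliculus and is the step that powers bile flow. When canalicular export fails, bile acids can leave through the basolateral membrane, chiefly by the heterodimer of SLC51A and SLC51B (OSTα and OSTβ). The bile acid receptor FXR (NR1H4) induces ABCB11, SLC51A, SLC51B and the repressor SHP (NR0B2), and SHP lowers bile acid synthesis and uptake.

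Values are FPKM, that is, fragments counted per kilobase of a gene and relative to all fragments of its library. Depth is unknown, because the table gave no counts. Pearson r of log2(FPKM + 1) between libraries of a group was 0.992 to 0.994 in Control, 0.992 in hiHepD8, 0.956 in NoBAL and 0.893 in EmptyBAL. The labels name hepatocytes as the cell type but liver as the source, and 17 of 18 hepatocyte marker genes were in the table, none at 0 in any library. The share of these 17 markers in a library's total FPKM was 15.9% to 16.1% for Control, 5.86% and 5.64% for NoBAL, 1.53% and 3.07% with EmptyBAL, 9.29% on day 4 (hiHepD4) and 8.54% and 8.74% on day 8 (hiHepD8). That share stands beside every transporter value below, and in bulk RNA fewer hepatocytes and less RNA per hepatocyte cannot be told apart. The part of the marker share in each transporter's change was not tested.

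Groups were compared with limma on log2(FPKM + 1), and a gene counts as called where its p, adjusted over all 12180 genes tested by the Benjamini-Hochberg method, was under 0.05. Against Control, 5 of the 8 transporters were called in NoBAL (2 higher, 3 lower), where 49.4% of all genes were called, 25.2% higher and 24.2% lower. In EmptyBAL 5 were called against Control, all 5 lower, where 53.7% of all genes were called, 29.3% lower. In hiHepD8 3 were called against Control, all 3 lower, where 32.2% of all genes were called, 17.1% lower. Between EmptyBAL and NoBAL 2 transporters were called, both lower in EmptyBAL, against 34.0% of all genes, 21.4% lower. From NoBAL to hiHepD8 6 were called (3 higher, 3 lower), against 47.3% of all genes, 22.5% higher and 24.8% lower. From EmptyBAL to hiHepD8 4 were called (3 higher, 1 lower), against 40.2% of all genes, 22.6% higher and 17.6% lower. With only 8 transporters, counts near or above these background shares are not read as a result about the set, and the text below turns to which role moved which way. With FPKM rescaled to a common sum, the balance over all genes turned, to 5670 called higher and 1657 lower in EmptyBAL against Control (2967 and 3573 as deposited) and to 2512 higher and 458 lower in EmptyBAL against NoBAL (1535 and 2611). The same rescaling gave 3761 higher and 1882 lower in NoBAL against Control (3068 and 2953 as deposited), 3668 and 981 in hiHepD8 against Control (1839 and 2084), 2922 and 2058 in hiHepD8 against NoBAL (2740 and 3024) and 1714 and 2730 in hiHepD8 against EmptyBAL (2751 and 2144). The comparisons share groups and are not independent of each other. All 8 passed the filter of at least 1 FPKM in at least 2 libraries, but SLC51A and SLC51B reached 1 FPKM in only 4 libraries. Those were both NoBAL libraries, EmptyBAL replicate 2 and hiHepD4. Both genes thus entered the tests only through libraries in which they were high, so their rise in NoBAL is not independent of the filter.

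**Figure D1:**
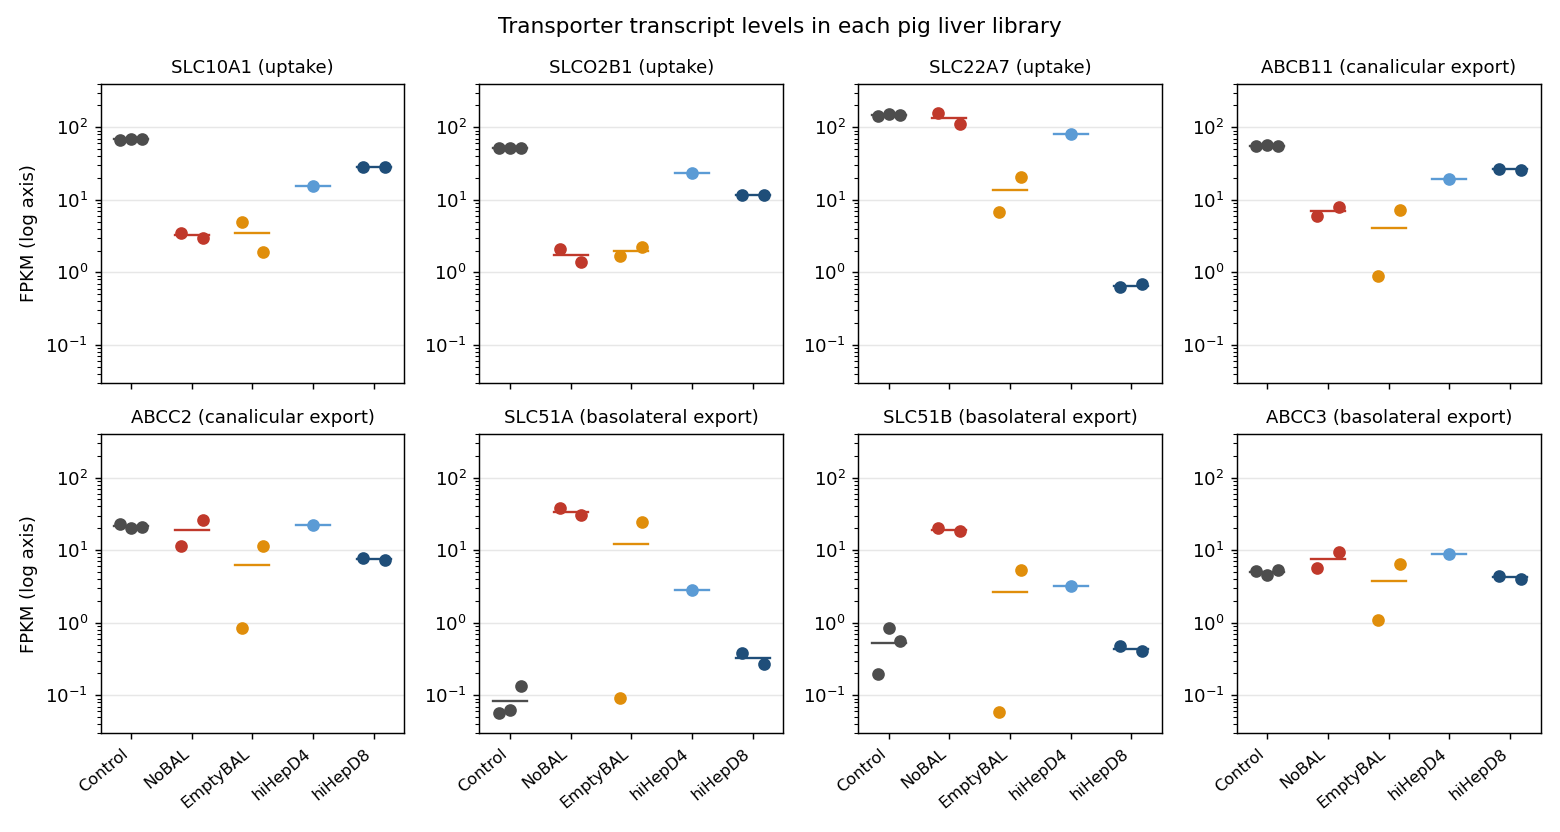
FPKM (log axis) of the 8 transporters in each library, 1 panel a gene, with libraries as points by group (Control, NoBAL, EmptyBAL, hiHepD4, hiHepD8) and the group mean as a line. SLC10A1, SLCO2B1 and ABCB11 are lowest in NoBAL and EmptyBAL, SLC22A7 is lowest in hiHepD8, and SLC51A and SLC51B are highest in NoBAL.

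SLC10A1, the sodium-dependent bile acid carrier on chromosome 7 (93400037 to 93421989 in Sscrofa11.1), was at 67.9, 68.2 and 68.8 FPKM in the Control libraries. NoBAL held 3.50 and 3.001 FPKM and EmptyBAL 5.03 and 1.94, while hiHepD4 stood at 15.7 and the hiHepD8 libraries both at 28.8. Control did not overlap any other group, NoBAL and EmptyBAL overlapped each other, and hiHepD8 lay between those and Control. The mean in NoBAL, 3.25 ± 0.35 FPKM (SD, n = 2), was 21.0-fold below that of Control, 68.3 ± 0.436 (SD, n = 3), and the log2 change of -4.03 ± 0.28 (SE) was called (limma, adjusted p = 3.5e-05). EmptyBAL fell from Control as well, by a log2 change of -4.04 ± 0.28 (limma, adjusted p = 3.1e-05), and its difference from NoBAL was -0.011 ± 0.30 (limma, adjusted p = 0.98). Against NoBAL, hiHepD8 rose 8.87-fold, a log2 change of 2.81 ± 0.30 (limma, adjusted p = 0.00032), and against EmptyBAL by 2.83 ± 0.30 (limma, adjusted p = 0.00046).

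SLC10A1 in hiHepD8 was at 42.2% of the Control mean in both libraries, and hiHepD4 was at 23.0%. The log2 change of hiHepD8 from Control, -1.22 ± 0.28, was called (limma, adjusted p = 0.012), but not without hiHepD8 replicate 1 (0.087) or replicate 2 (0.086), nor with FPKM rescaled to a common sum (log2 change -0.66, limma adjusted p = 0.11). Without EmptyBAL replicate 1, EmptyBAL was lower than NoBAL by a log2 change of -0.53 (limma, adjusted p = 0.021), and without EmptyBAL replicate 2 it was higher by 0.51 (limma, adjusted p = 0.013), so the direction of that difference depends on the library kept.

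SLCO2B1 (OATP2B1), a sodium-independent carrier of steroid sulfates, bile acids and drugs on chromosome 9 (9433978 to 9474248), was at 51.9, 52.1 and 52.6 FPKM in Control. It was at 2.07 and 1.40 FPKM in NoBAL, 1.70 and 2.27 with EmptyBAL, 23.2 on day 4 (hiHepD4) and 11.5 and 11.6 on day 8 (hiHepD8). As with SLC10A1, Control stood clear of all other libraries and NoBAL and EmptyBAL overlapped. The Control mean was 30.0-fold that of NoBAL, and the log2 change was -4.29 ± 0.16 (limma, adjusted p = 3.4e-06). EmptyBAL fell from Control, a log2 change of -4.16 ± 0.16 (limma, adjusted p = 3.6e-06). Against NoBAL, hiHepD8 rose 6.66-fold (log2 change 2.21 ± 0.18, limma adjusted p = 9.4e-05), and against EmptyBAL the change was 2.08 ± 0.18 (limma, adjusted p = 2e-04). It remained below Control by -2.08 ± 0.16 (limma, adjusted p = 0.00011).

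The order of the cell-filled groups differed between these uptake genes. SLC10A1 was lower on day 4 than in either day 8 library, while SLCO2B1 was at 44.4% of the Control mean on day 4 and at 22.1% and 22.3% on day 8. The ratio of SLC10A1 to SLCO2B1 was 1.31 in all 3 Control libraries, 0.677 in hiHepD4 and 2.499 and 2.48 in hiHepD8. Day 4 was a single library, so this difference has no replicate check.

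SLC22A7 (OAT2), a carrier of small organic anions and nucleotides rather than a main bile acid carrier, lies on chromosome 7 (38328474 to 38334879) and followed another course. It was the most abundant of the 8 transporters in Control, at 144, 153 and 146 FPKM, and was at 158 and 111 in NoBAL, which overlapped Control. EmptyBAL was at 6.85 and 20.9 FPKM, hiHepD4 at 81.1, and hiHepD8 at 0.622 and 0.691. Ranked among the 12180 genes tested, it stood at the 95.0 to 95.2 percentile in Control, the 95.5 and 95.1 in NoBAL, and the 7.11 and 7.80 in hiHepD8.

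The change of SLC22A7 from Control to NoBAL was -0.16 ± 0.39 and was not called (limma, adjusted p = 0.75). EmptyBAL fell both from Control, a log2 change of -3.50 ± 0.39 (limma, adjusted p = 0.00025), and from NoBAL, -3.34 ± 0.43 (limma, adjusted p = 0.0028). In hiHepD8 the fall from Control was 225.2-fold in FPKM, a log2 change of -6.49 ± 0.39 (limma, adjusted p = 3.8e-05). The change from NoBAL to hiHepD8 was -6.33 ± 0.43 (limma, adjusted p = 5.1e-05), and that from EmptyBAL -2.99 ± 0.43 (limma, adjusted p = 0.0015). SLC22A7 was thus higher in NoBAL than in hiHepD8 in both libraries of each, opposite in direction to SLC10A1 and SLCO2B1. The hiHepD8 libraries were below 1 FPKM, where the added pseudocount of 1 understates the change.

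ABCB11, the canalicular bile salt export pump on chromosome 15 (75402296 to 75487092), was at 55.6, 57.4 and 55.2 FPKM in Control. NoBAL held 5.98 and 7.89 FPKM, EmptyBAL 0.889 and 7.22, hiHepD4 19.2 and hiHepD8 26.7 and 26.1. No library of another group overlapped Control, and the EmptyBAL libraries differed from each other more than the NoBAL libraries did. The NoBAL mean was 8.08-fold below Control, with a log2 change of -2.86 ± 0.52 (limma, adjusted p = 0.0028), and that of EmptyBAL from Control was -3.86 ± 0.52 (limma, adjusted p = 0.00063). In hiHepD8 ABCB11 stood at 47.7% and 46.6% of the Control mean, and the log2 change from Control of -1.06 ± 0.52 was not called (limma, adjusted p = 0.16), although it was without either EmptyBAL library (limma, adjusted p = 0.00064 in each case).

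The rise of ABCB11 from NoBAL to hiHepD8 was 1.80 ± 0.56 on the log2 scale (limma, adjusted p = 0.032). It was lost on leaving out any 1 Control, NoBAL or hiHepD8 library, with adjusted p-values of 0.053 to 0.13 from limma. From EmptyBAL to hiHepD8 the rise was 2.80 ± 0.56 (limma, adjusted p = 0.0065), and it was 1.74 without EmptyBAL replicate 1 and 3.86 without EmptyBAL replicate 2.

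ABCC2 (MRP2), the canalicular pump for bilirubin glucuronides and other conjugates, lies on chromosome 14 (110955698 to 111038898). It was at 23.3, 20.3 and 21.2 FPKM in Control, 11.4 and 26.3 in NoBAL, 0.852 and 11.6 with EmptyBAL, 22.3 on day 4 (hiHepD4) and 7.78 and 7.41 on day 8 (hiHepD8). The NoBAL libraries lay on either side of Control, and the log2 change of -0.29 ± 0.71 was not called (limma, adjusted p = 0.75). EmptyBAL fell from Control, a log2 change of -2.22 ± 0.71 (limma, adjusted p = 0.03), but the change was -0.84 without EmptyBAL replicate 1 (limma, adjusted p = 0.11), and the call was also lost without any 1 Control library (0.066 to 0.074). The hiHepD8 libraries, at 36.1% and 34.4% of the Control mean, differed from Control by -1.39 ± 0.71 (limma, adjusted p = 0.17), a difference that was called without EmptyBAL replicate 1 (0.0094) or 2 (0.0095). Unlike ABCB11, ABCC2 was not called between NoBAL and hiHepD8 (log2 change -1.10 ± 0.77, limma adjusted p = 0.27), except without EmptyBAL replicate 1 or 2 (0.026 each). The difference between the 2 genes' changes was not tested.

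SLC51A (OSTα), the larger subunit of the basolateral bile acid exporter, lies on chromosome 13 (133851775 to 133869753). In Control it was near the bottom of the genes tested, at 0.0577, 0.0622 and 0.133 FPKM, the 1.28 to 2.31 percentile. NoBAL held 37.5 and 30.6 FPKM, the 83.9 and 82.7 percentile. The EmptyBAL libraries split, with 0.0930 FPKM in replicate 1 and 24.4 in replicate 2, hiHepD4 was at 2.86, and hiHepD8 was at 0.385 and 0.271. NoBAL stood above every other library, and hiHepD8 was above Control but under 1 FPKM.

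SLC51A passed the filter only through NoBAL, EmptyBAL replicate 2 and hiHepD4. It rose from Control to NoBAL by 5.01 ± 1.06 on the log2 scale (limma, adjusted p = 0.006). From NoBAL to hiHepD8 it fell, a change of -4.72 ± 1.16 (limma, adjusted p = 0.012), a call lost without NoBAL replicate 1 (0.06), hiHepD8 replicate 1 (0.058) or hiHepD8 replicate 2 (0.061). EmptyBAL against Control, 2.28 ± 1.06, was not called (limma, adjusted p = 0.1), but without EmptyBAL replicate 1 the change was 4.55 (limma, adjusted p = 6.7e-06). Likewise, EmptyBAL to hiHepD8 was -1.99 ± 1.16 (limma, adjusted p = 0.21) with both EmptyBAL libraries and -4.26 (limma, adjusted p = 3.2e-05) without replicate 1. EmptyBAL against NoBAL was -2.73 ± 1.16 (limma, adjusted p = 0.1), and -5.00 without EmptyBAL replicate 2 (limma, adjusted p = 1.8e-05).

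SLC51B (OSTβ), the small partner subunit that SLC51A needs to reach the membrane, lies on chromosome 1 (163081145 to 163089491). It was at 0.194, 0.842 and 0.559 FPKM in Control, 20.0 and 18.5 in NoBAL, 0.0585 and 5.27 with EmptyBAL, 3.25 on day 4 (hiHepD4) and 0.473 and 0.407 on day 8 (hiHepD8). The same library, EmptyBAL replicate 2, was the higher of its group for both subunits, and hiHepD8 overlapped Control. SLC51B rose in NoBAL by 3.74 ± 0.62 (limma, adjusted p = 0.0019) and fell from NoBAL to hiHepD8, a change of -3.81 ± 0.68 (limma, adjusted p = 0.0031).

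SLC51B also fell from NoBAL to EmptyBAL, a log2 change of -2.97 ± 0.68 (limma, adjusted p = 0.016), which was -1.69 without EmptyBAL replicate 1 and -4.26 without EmptyBAL replicate 2. That call was lost without NoBAL replicate 1 (limma, adjusted p = 0.057) or NoBAL replicate 2 (0.059). The change of SLC51B from Control to EmptyBAL was 0.77 ± 0.62 (limma, adjusted p = 0.32), and 2.06 without EmptyBAL replicate 1 (limma, adjusted p = 0.00056). From EmptyBAL to hiHepD8 it was -0.84 ± 0.68 (limma, adjusted p = 0.36), and -2.12 without that library (limma, adjusted p = 0.001). The FPKM ratio of SLC51A to SLC51B, per length of each gene, was 1.88 and 1.65 in NoBAL, 4.63 in EmptyBAL replicate 2 and 0.881 in hiHepD4, the libraries in which both reached 1 FPKM.

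SLC51A and SLC51B are also expressed by cholangiocytes, the cells of the bile ducts. Of 15 cholangiocyte markers 13 were in the table, and their summed FPKM was 170 to 179 in Control, 299 and 218 in NoBAL, 687 and 410 with EmptyBAL, 213 on day 4 (hiHepD4) and 196 and 200 on day 8 (hiHepD8). At most 2 of the 13 were at 0 in a library; SCTR, the secretin receptor, was listed at 0 in both NoBAL libraries. KRT7, a bile duct keratin, was at 8.38 to 9.66 FPKM in Control, 24.5 and 11.2 in NoBAL and 80.0 and 104.5 in EmptyBAL. EmptyBAL replicate 1 thus had the highest marker sum and the lowest SLC51B of the 10 libraries. The part of bile duct cells in the SLC51A and SLC51B values was not tested.

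ABCC3 (MRP3), a basolateral exporter of glucuronides and bile acids on chromosome 12 (26920764 to 26978389), was not called in any of the 6 comparisons. It was at 5.15, 4.53 and 5.38 FPKM in Control, 5.73 and 9.41 in NoBAL, 1.10 and 6.45 with EmptyBAL, 8.73 on day 4 (hiHepD4) and 4.46 and 4.04 on day 8 (hiHepD8). Both NoBAL libraries were above Control, but the log2 change of 0.48 ± 0.47 did not pass the test (limma, adjusted p = 0.42). Without EmptyBAL replicate 2 it was called lower in EmptyBAL than in Control (log2 change -1.52, limma adjusted p = 0.0016) and than in NoBAL (-1.998, 0.00093), and higher in hiHepD8 than in EmptyBAL (1.32, 0.0049). Without EmptyBAL replicate 1 (0.028) or 2 (0.029) it was called lower in hiHepD8 than in NoBAL, at a log2 change of -0.67 in both cases.

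**Figure D2:**
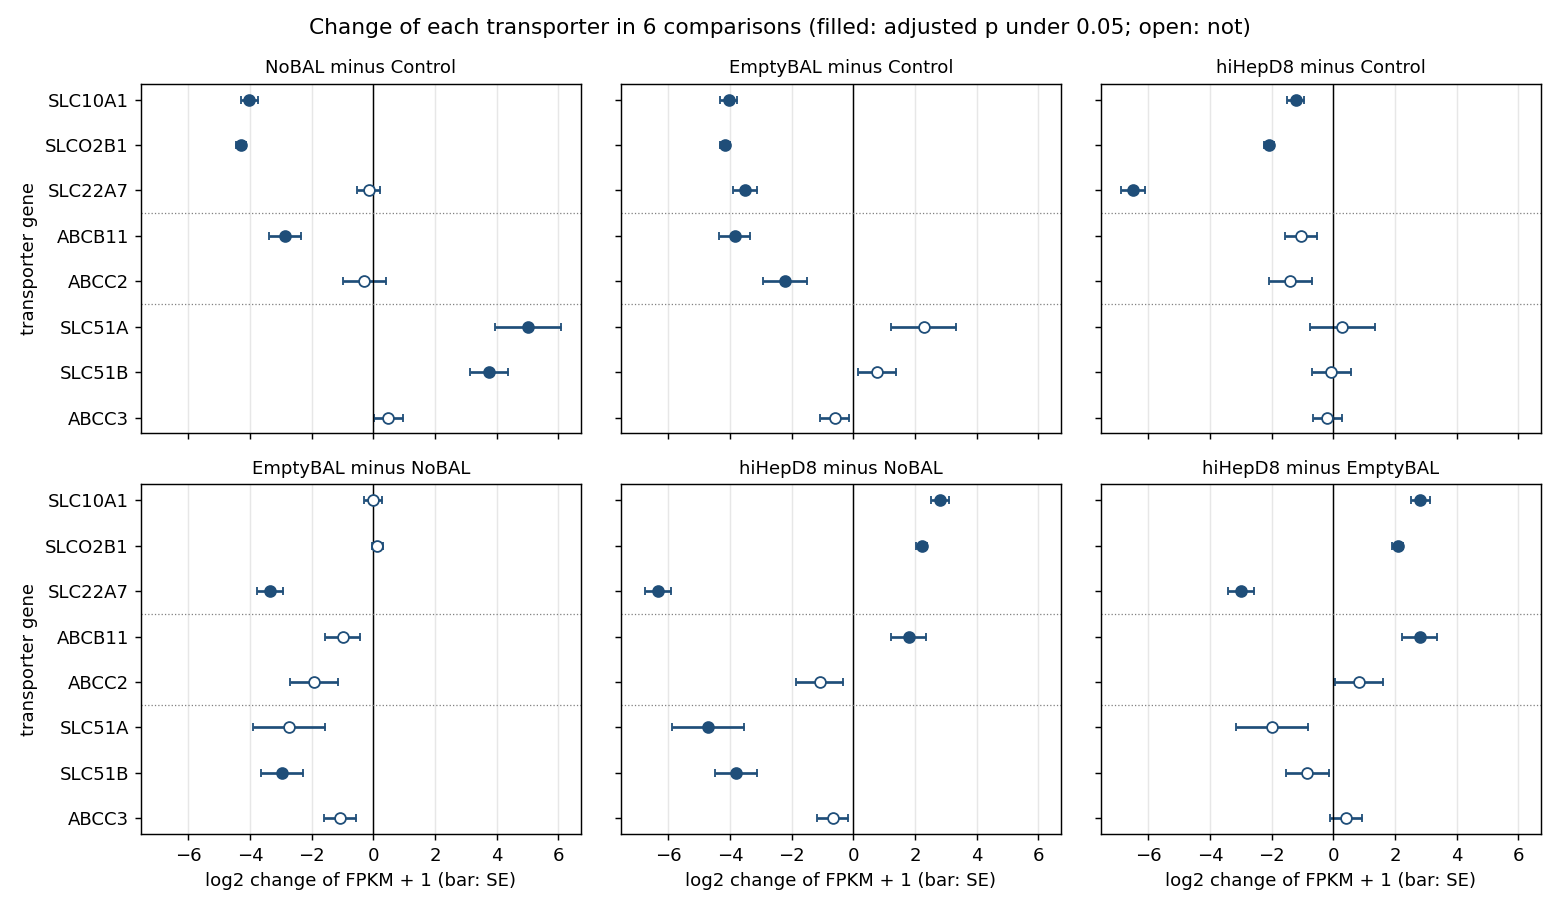
Log2 change (difference of log2(FPKM + 1) between group means, x axis) with limma's SE as bars for the 8 transporters in 6 comparisons; filled points were called. In NoBAL against Control SLC10A1 (-4.03) and SLCO2B1 (-4.29) lie far left and SLC51A (5.01) and SLC51B (3.74) far right, and in hiHepD8 against NoBAL these 4 lie on the opposite sides.

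In liver failure without a device, the members that changed were lower for uptake and canalicular export and higher for basolateral export, and each role also held 1 member that was not called (SLC22A7, ABCC2 and ABCC3). In NoBAL against Control the median log2 change was -4.03 for the 3 uptake genes (2 fell), -1.57 for the 2 canalicular genes (1 fell) and 3.74 for the 3 basolateral export genes (2 rose), beside 0.039 for all genes tested. In EmptyBAL against Control the medians were -4.04 (3 fell), -3.04 (2 fell) and 0.77 (none called), beside -0.025 for all genes. In EmptyBAL against NoBAL they were -0.011 for uptake, which is the value of SLC10A1 and changed sign under both other scalings tried, -1.47 for canalicular export and -2.73 for basolateral export, beside -0.14. No role was tested as a group, since its members are not replicates.

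In hiHepD8 against NoBAL, the median change was 2.21 for uptake (2 rose and SLC22A7 fell), 0.35 for canalicular export (ABCB11 rose) and -3.81 for basolateral export (2 fell), beside -0.032 for all genes. Against EmptyBAL, the hiHepD8 medians were 2.08, 1.82 and -0.84, beside 0.049. Against Control they were -2.08 for uptake (3 fell), -1.22 for canalicular export (none called) and -0.067 for basolateral export (none called), beside -0.017. That last median is the value of SLC51B, whose sign changed under both other scalings.

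Summed FPKM per role weights abundant genes and differed from the medians for uptake, where SLC22A7 dominates. The uptake sum was 263 to 274 FPKM in Control, 163 and 115 in NoBAL, 13.6 and 25.1 with EmptyBAL, 120.0 on day 4 (hiHepD4) and 40.9 and 41.2 on day 8 (hiHepD8). It was thus lower in hiHepD8 than in NoBAL, opposite in direction to the uptake median. The basolateral sum was 5.40 to 6.07 FPKM in Control, 63.2 and 58.4 in NoBAL, 1.25 and 36.1 with EmptyBAL, 14.8 on day 4 (hiHepD4) and 5.32 and 4.72 on day 8 (hiHepD8). The canalicular sum was 76.3 to 78.9 in Control, 17.4 and 34.2 in NoBAL, 1.74 and 18.8 with EmptyBAL, 41.5 on day 4 (hiHepD4) and 34.5 and 33.5 on day 8 (hiHepD8). In NoBAL, RNA for the 3 measured basolateral genes exceeded that for the 2 measured canalicular pumps in both libraries. This was the reverse of all 3 Control libraries. The canalicular sum lacks ABCB4, and the basolateral sum counts both subunits of the same exporter. The ratio of SLC51A to ABCB11 alone was 6.27 and 3.87 in NoBAL, 3.38 in EmptyBAL replicate 2 and 0.149 in hiHepD4, and at or below 0.105 in the other libraries.

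**Figure D3:**
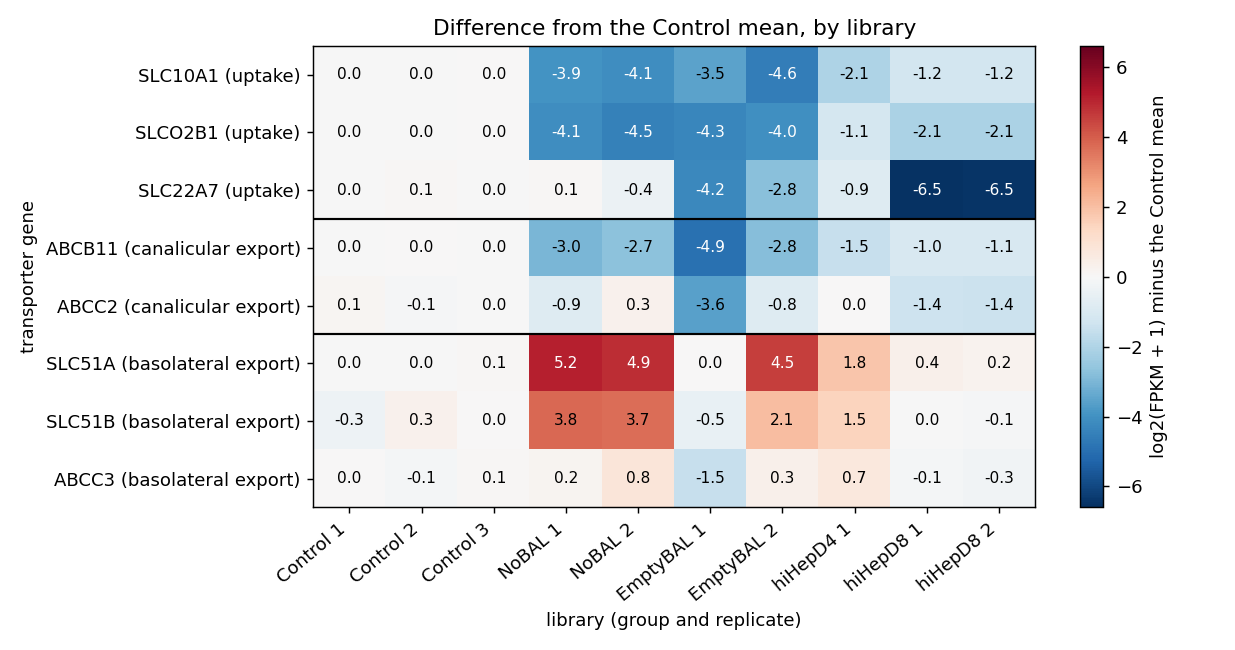
Log2(FPKM + 1) of each transporter (rows) in each of the 10 libraries (columns), as the difference from the Control mean. The EmptyBAL libraries differ from each other, with SLC51A at 0.012 in replicate 1 and 4.55 in replicate 2, while the hiHepD8 libraries are alike.

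The EmptyBAL libraries stood apart from each other. Against the Control mean, replicate 1 was lower than replicate 2 for ABCB11 (log2 difference from Control -4.92 against -2.79), ABCC2 (-3.61 against -0.84), ABCC3 (-1.52 against 0.31) and SLC22A7 (-4.24 against -2.76), as well as for both SLC51 subunits. SLC10A1 was the exception in direction, higher in replicate 1 (-3.52 against -4.56), and SLCO2B1 differed little (-4.30 against -4.02). Transcriptional regulators, chosen here after their values were seen, went both ways: in EmptyBAL replicate 1 against 2, HNF4A was at 3.15 against 46.5 FPKM and NR1I3 at 0.622 against 8.39, but CEBPA was at 31.3 against 16.8, RARA at 73.2 against 19.7 and NR1H3 at 136.5 against 75.5. Of 7 neutrophil markers listed, 5 had values. Their summed FPKM was 626.6 in replicate 1 and 103.0 in replicate 2, against 1.01 to 2.22 in Control. In both EmptyBAL libraries most of the sum came from S100A8 (175.1 against 27.6 FPKM in replicate 1 against 2) and S100A12 (442.5 against 62.99). MMP8 was also higher in replicate 1 (0.0752 against 0.0184), but CSF3R (8.38 against 9.896) and MMP9 (0.553 against 2.504) were lower there. The part of these differences in the transporter values was not tested.

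Across the 10 libraries, SLC10A1 correlated with SLCO2B1 (Pearson r of log2(FPKM + 1) 0.95) and with ABCB11 (0.88), and SLC51A with SLC51B (0.96). SLC10A1 and SLC51A were opposed (-0.82), and SLC10A1 and SLC22A7 were close to unrelated (0.06). These values describe the libraries only, since libraries of a group are alike and share day and treatment.

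The single day 4 library held intermediate values for several transporters. SLC10A1 was at 23.0%, ABCB11 at 34.3%, SLCO2B1 at 44.4% and SLC22A7 at 54.9% of the Control mean, while ABCC2 was at 103% and ABCC3 at 174%. SLC51A (2.86 FPKM) and SLC51B (3.25 FPKM) were above all Control and hiHepD8 libraries and below both NoBAL libraries. With 1 library, hiHepD4 carries no test.

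The FXR and SHP genes, NR1H4 and NR0B2, were named after their values were seen because several of the transporters are their targets. NR1H4 was at 51.0 to 53.6 FPKM in Control, 16.9 and 22.9 in NoBAL, 7.64 and 18.3 with EmptyBAL, 37.0 on day 4 (hiHepD4) and 45.6 and 41.9 on day 8 (hiHepD8). It fell in NoBAL, a log2 change of -1.36 ± 0.32 (limma, adjusted p = 0.0092; 0.061 without NoBAL replicate 1) and rose from NoBAL to hiHepD8 by 1.11 ± 0.35 (limma, adjusted p = 0.031). The latter call was lost without any 1 Control, NoBAL replicate 1 or either hiHepD8 library (0.055 to 0.14). SLC51A and SLC51B were highest, and ABCB11 low, in NoBAL libraries whose RNA for the receptor was below that of Control. Activity of the receptor was not measured, and its part in these transporter values was not tested.

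NR0B2 did not follow NR1H4 from Control to NoBAL or from NoBAL to hiHepD8, but both were below Control in EmptyBAL and hiHepD4. NR0B2 was at 68.5 to 71.3 FPKM in Control, 74.5 and 84.7 in NoBAL, 1.26 and 30.3 with EmptyBAL, 37.0 on day 4 (hiHepD4) and 15.4 and 16.9 on day 8 (hiHepD8). NoBAL differed from Control by 0.19 ± 0.89 (limma, adjusted p = 0.87). EmptyBAL differed from Control by -3.07 (limma, adjusted p = 0.021) and from NoBAL by -3.26 (limma, adjusted p = 0.037). These calls were kept in 13 and 7 of 20 alternatives. From NoBAL to hiHepD8 the change was -2.23 ± 0.98 (limma, adjusted p = 0.095). It was called in 3 of 20 alternatives, among them those without EmptyBAL replicate 1 or 2.

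Related genes were read from 5 lists, chosen with earlier results of these data known. Of 9 measured bile acid synthesis genes, 7 fell in NoBAL against Control and none rose, with a median log2 change of -2.25, beside 0.039 for all genes, of which 24.2% were called lower. CYP7A1, the rate-limiting enzyme of bile acid synthesis, fell from 33.4 ± 0.946 (SD, n = 3) to 0.249 ± 0.014 FPKM (SD, n = 2), a log2 change of -4.78 ± 0.15 (limma, adjusted p = 2.2e-06). AKR1D1, the steroid 5β-reductase of that pathway, changed by -4.54, SLC27A5, a bile acid CoA ligase, by -4.36, and CYP27A1, the sterol 27-hydroxylase, by -3.08. In hiHepD8 against NoBAL 5 of the 9 rose and none fell, beside 22.5% of all genes called higher. Those that rose included ACOX2 (2.63), CYP7A1 (2.44), SLC27A5 (2.29) and AKR1D1 (1.997). The call of AKR1D1 in hiHepD8 was lost without NoBAL replicate 2 (limma, adjusted p = 0.13) or either hiHepD8 library (0.1). CYP7A1 was at 5.78 and 5.76 FPKM in hiHepD8, still below the 32.3 to 34.1 of Control.

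Of 13 other measured transporters, 5 fell and none rose in NoBAL against Control, beside 24.2% of all genes called lower and 25.2% higher. SLC22A9, an organic anion carrier, changed by -4.72, ABCC6, a basolateral ABC transporter, by -4.24, and ATP7B, a copper pump, by -1.55 (called except without NoBAL replicate 2, limma adjusted p = 0.09). In hiHepD8 against NoBAL 5 rose and 1 fell, beside 22.5% of all genes called higher and 24.8% lower. SLC22A9 (3.43), ABCC6 (2.04) and ATP7B (1.33) were among those that rose. The hiHepD8 call of ATP7B was lost without hiHepD8 replicate 1 or 2 (limma, adjusted p = 0.12 each), and also without NoBAL replicate 2 (0.18) or any 1 Control library (0.055 to 0.056).

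Among 15 transcriptional regulators, 6 fell and 1 rose in NoBAL against Control, and 3 rose and 2 fell from NoBAL to hiHepD8, beside 49.4% and 47.3% of all genes called, so the number of calls among regulators did not exceed the background. PPARA, a fatty acid receptor, changed by -3.46, NR1I3 (CAR) by -2.78, NR1I2 (PXR) by -1.78 and FOXA2 by -1.58 in NoBAL, with the call of NR1I3 lost without NoBAL replicate 2 (limma, adjusted p = 0.054). In hiHepD8 RXRA, the partner of FXR, changed by 1.13 and NFE2L2 by 1.08 from NoBAL, and CEBPA by -1.26. All 3 calls were lost without either hiHepD8 library (limma, adjusted p = 0.053 to 0.069), and those of NFE2L2 and CEBPA also without NoBAL replicate 1 (0.05 and 0.053). PPARA remained low in hiHepD8, at 0.499 and 0.312 FPKM, against 19.3 to 20.0 in Control.

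Of 4 measured bile acid signalling genes, 2 fell and 1 rose in NoBAL, beside 24.2% of all genes called lower and 25.2% higher. FGFR4 and its co-receptor KLB, which receive the gut hormone FGF19, fell in NoBAL, with changes of -1.37 and -1.12. KLB was low throughout, at 1.87 to 2.06 FPKM in Control and 0.460 and 0.272 in NoBAL. GPBAR1, the membrane bile acid receptor TGR5, was higher in NoBAL (0.53) and in hiHepD8 than in NoBAL (1.54); the first call was lost without NoBAL replicate 1 or 2, hiHepD8 replicate 1 or 2, or Control replicate 2 or 3 (limma, adjusted p = 0.06 to 0.19). GPBAR1 was highest in EmptyBAL, at 13.6 and 10.3 FPKM, against 0.620 to 1.16 in Control.

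Of 16 measured genes for the delivery of pumps to the canalicular membrane and its junctions, 3 rose and 1 fell in NoBAL against Control, beside 49.4% of all genes called, and the median change was 0.049. PDZK1, a scaffold that binds transporters, fell (-1.95), and EZR (1.48), RAB11A (0.89) and UNC45A (0.67) rose. From NoBAL to hiHepD8 VIPAS39 (0.88) rose, and PDZK1 (-1.08), RAB11A (-0.76) and UNC45A (-0.67) fell. EZR in NoBAL lost its call without NoBAL replicate 2 (limma, adjusted p = 0.17) or any 1 Control library (0.053 to 0.069), and UNC45A without NoBAL replicate 1 (0.076) or any 1 Control library (0.052 to 0.072). The 4 named hiHepD8 calls were each lost without either hiHepD8 library (limma, adjusted p = 0.063 to 0.18). Those of VIPAS39 (without NoBAL replicate 2, 0.077), PDZK1 and UNC45A (without any 1 NoBAL or Control library, 0.055 to 0.12) were also lost in other ways.

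**Figure D4:**
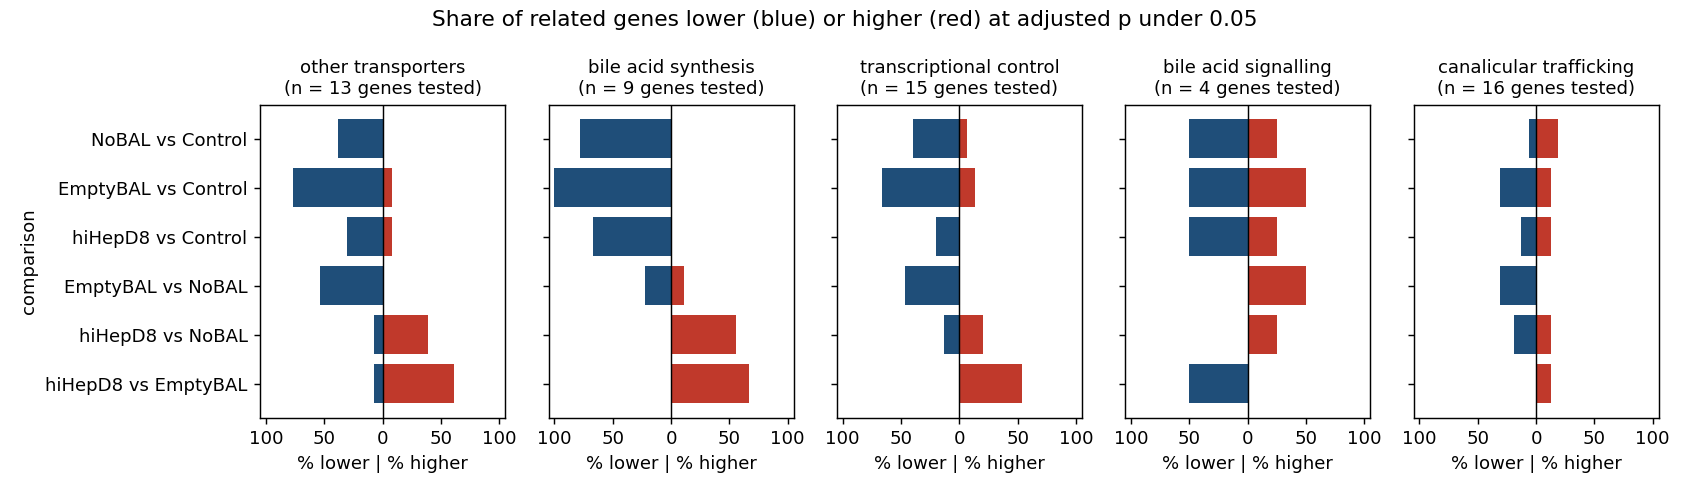
Percent of the measured genes of 5 related lists that were called lower (left) or higher (right) in each of the 6 comparisons. Bile acid synthesis genes are mostly lower in NoBAL (7 of 9) and EmptyBAL (9 of 9) than in Control, and 5 of 9 are higher in hiHepD8 than in NoBAL.

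The genes whose levels ran most alike were sought among the 4498 named genes averaging 10 FPKM or more, by Pearson r of log2(FPKM + 1) over the 10 libraries. Closest to SLC10A1 were TM7SF2 (0.993), HAAO (0.993) and GCGR, the glucagon receptor (0.990). Closest to ABCB11 were ECHDC3 (0.991), KLF9 (0.988) and NR1I3 (0.988), and closest to SLC51A were CCT3, a chaperonin subunit (0.992), MRPL10, a mitochondrial ribosomal protein (0.989), and COX5A, a respiratory chain subunit (0.980). SLC22A7 ran most like EIF4G1, a translation initiation factor (0.983), IER3, an immediate early gene (0.982), and CHKA, choline kinase (0.979). IER3 shared its low level in hiHepD8, at a mean of 7.13 FPKM against 168 in Control, although CHKA and EIF4G1 kept 24.7 and 31.3 FPKM there.

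Both SLCO and SLC22 genes belong to families with close paralogs, and the sources used here do not give how reads shared between paralogs were counted, nor whether strand was kept. When the Control libraries were averaged to 1 and the hiHepD8 libraries to 1, as if each group were a single animal, 5 of the 25 transporter calls held: SLC10A1 and SLCO2B1 lower in NoBAL and in EmptyBAL than in Control, and SLC22A7 lower in hiHepD8 than in NoBAL (limma, adjusted p = 0.024 to 0.036). The other 20 calls, among them those of SLC51A (0.17) and SLC51B (0.12) in NoBAL and of SLC10A1 (0.066) and SLCO2B1 (0.061) between NoBAL and hiHepD8, rest on treating those libraries as separate.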

How the data were processed

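The authors deposited 1 table of FPKM for 31905 genes in 10 libraries. Trizol total RNA of pig livers was made into TruSeq libraries and sequenced from both ends on an Illumina HiSeq, per the labels' protocols. HTSeq, Cufflinks and HISAT2 appear in the submitters' processing notes with no role, beside the pig build Sscrofa11.1 and the mouse build mm10, which was set aside. Coordinates are from a RefSeq gene table of Sscrofa11.1.

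The 12180 genes that reached 1 FPKM in at least 2 libraries were tested as log2(FPKM + 1), which understates changes of low genes, with limma 3.58.1 in R 4.3.3. All libraries entered 1 model with 5 group means and a mean-variance trend; tests were two-sided. hiHepD4, a single library, helped set only its own mean. The fit was tested on simulated data. Plots used matplotlib 3.10.9 with numpy 2.4.6 and pandas 2.3.3 in Python 3.11.15. Summed FPKM was 439925 to 829970 per library; depth is unknown. The members and lists were chosen with earlier results of these data known. From each related list, up to 4 called genes with the largest change in NoBAL against Control or hiHepD8 against NoBAL were named, except any not reported here; likeness was given for SLC10A1, SLC22A7, ABCB11 and SLC51A, 3 genes each. Alternatives changed the pseudocount, filter, scaling, libraries fitted, trend, replicate block and rows sharing a symbol.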

Additional observations from a re-analysis of the deposited data

How the results depend on the processing

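No called change of a transporter reversed under any of the 20 alternatives, and 5 of the 25 calls held under all of them. With at least 1 FPKM required in at least 5 libraries, SLC51A and SLC51B were no longer tested, and the number of transporters called (limma) was 3 in NoBAL against Control and 1 in EmptyBAL against NoBAL. With only the groups compared in the fit, 5 were called in hiHepD8 against Control and 0 in EmptyBAL against NoBAL (2 at an unadjusted p under 0.05). With the Control libraries averaged to 1 and the hiHepD8 libraries to 1, limma called 2 in NoBAL and 2 in EmptyBAL against Control, 1 in hiHepD8 against NoBAL, and 0 in hiHepD8 against Control, EmptyBAL against NoBAL and hiHepD8 against EmptyBAL (2, 2 and 4 at an unadjusted p under 0.05); fewer libraries then entered the fit. Leaving out 1 library, the lone one then assumed to vary like the other groups, gave 2 to 5 calls in hiHepD8 against Control (5 without EmptyBAL replicate 1 or 2) and 1 to 7 in EmptyBAL against NoBAL (1 without NoBAL replicate 1 or 2, 7 without EmptyBAL replicate 2), 4 to 6 in EmptyBAL against Control, 4 to 8 in hiHepD8 against NoBAL, 4 to 6 in hiHepD8 against EmptyBAL and 5 throughout in NoBAL against Control.

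The replicate block kept all 25 calls. Deviations of libraries with the same number correlated at -0.054 to 0.14 over genes. This rests on a single difference per group and cannot show whether such libraries share anything beyond the number.

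Upper-quartile scaling moved the median of all genes by up to 0.20 (EmptyBAL against NoBAL, then 2212 genes called higher and 1277 lower; 3853 and 2902 in EmptyBAL against Control, 2580 and 1580 in hiHepD8 against Control, 3476 and 2306 in hiHepD8 against NoBAL) and a common sum by up to 0.67 (EmptyBAL against Control). Uncalled changes reversed with upper-quartile scaling for SLC51B in hiHepD8 against Control (0.0025) and SLC10A1 in EmptyBAL against NoBAL (0.19). With a common sum they reversed in NoBAL against Control for SLC22A7 (0.20), ABCC2 (0.051) and HNF4A (0.046), for ABCC3 in EmptyBAL (0.0079) and hiHepD8 (0.29) against Control, for SLC51B in hiHepD8 against Control (0.15), and for SLC10A1 in EmptyBAL against NoBAL (0.36). The cause was not tested.

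Leaving out 1 library, uncalled changes that reversed ranged in NoBAL against Control from -0.41 to 0.092 (SLC22A7) and -0.86 to 0.28 (ABCC2); in EmptyBAL against Control from -0.51 to 2.06 (SLC51B) and -1.52 to 0.31 (ABCC3); in hiHepD8 against Control from -0.23 to 0.078 (SLC51B). In EmptyBAL against NoBAL they ranged from -0.53 to 0.51 (SLC10A1, called at both ends), -0.048 to 0.31 (SLCO2B1) and -2.06 to 0.061 (ABCB11), and in hiHepD8 against EmptyBAL from -4.26 to 0.28 (SLC51A), -2.12 to 0.44 (SLC51B), -0.51 to 1.32 (ABCC3) and -0.55 to 2.21 (ABCC2). Of the 42 calls of related genes named, 7 held with those libraries averaged.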

Other observations

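The canalicular sterol pump genes ABCG5 and ABCG8, which export cholesterol into bile, were named after their values were seen. ABCG5 was at 12.8 to 13.7 FPKM in Control, 15.0 and 14.9 in NoBAL, 0.379 and 5.18 with EmptyBAL, 15.0 on day 4 (hiHepD4) and 8.11 and 8.19 on day 8 (hiHepD8). ABCG8 was at 47.1 to 49.1 FPKM in Control, 27.8 and 28.5 in NoBAL, 0.838 and 8.56 with EmptyBAL, 33.0 on day 4 (hiHepD4) and 24.36 and 24.45 on day 8 (hiHepD8). ABCG5 fell from Control to EmptyBAL, a log2 change of -2.29 ± 0.52 (limma, adjusted p = 0.0073), as did ABCG8, -3.55 ± 0.57 (limma, adjusted p = 0.0014). The changes from NoBAL to EmptyBAL, -2.45 ± 0.57 for ABCG5 (limma, adjusted p = 0.016) and -2.80 ± 0.62 for ABCG8 (limma, adjusted p = 0.014), lost their calls without NoBAL replicate 2 (0.061 and 0.057), and that of ABCG5 also without NoBAL replicate 1 (0.054). Without EmptyBAL replicate 1 the changes from Control to EmptyBAL were -1.21 (ABCG5) and -2.37 (ABCG8), and without replicate 2 they were -3.37 and -4.74. From NoBAL to EmptyBAL they were -1.37 and -1.61 without replicate 1 and -3.53 and -3.99 without replicate 2. Unlike ABCB11, ABCG5 in NoBAL was above all 3 Control libraries, but its log2 change of 0.16 ± 0.52 was not called (limma, adjusted p = 0.81). ABCG8 in NoBAL was below all 3 Control libraries, and its change of -0.76 ± 0.57 was not called either (limma, adjusted p = 0.3).

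SLCO1A2, another organic anion uptake gene, was at 30.5 to 32.6 FPKM in Control, 11.3 and 20.1 in NoBAL, 0.709 and 6.35 with EmptyBAL, 20.6 on day 4 (hiHepD4) and 14.6 and 15.2 on day 8 (hiHepD8), and was not called in NoBAL against Control (log2 change -1.01 ± 0.54, limma adjusted p = 0.15). SLC10A2, the bile acid carrier of the ileum and bile ducts, was listed at 0 in all 10 libraries.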
